A study of Mus musculus with 13 samples.

Results

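Myc, its dimerization partner Max and 38 genes of ribosome biogenesis, 40 of the 47937 genes counted, were followed in DN3 and DN4 thymocytes. The 40 genes were listed by name: Myc and Max, 5 genes of RNA polymerase I transcription, and 33 genes whose products chaperone, modify, cleave or assemble ribosomal RNA. Every gene on the list was found in the count table and every one passed the filter on low counts in each of the 5 comparisons. DN3 and DN4 are stages of CD4-CD8- (double negative) thymocytes before and after β-selection, at which cells that made a working T cell receptor β chain go on to divide and mature. Groups were 3 DN3 and 4 DN4 libraries of Wt;Lck-Cre+ mice (Wt) and 3 DN3 and 3 DN4 libraries of Opa1fl/fl;Lck-Cre+ mice, in which Cre is meant to delete floxed sequence of Opa1, a mitochondrial fusion and cristae-shaping protein. Each library came from freshly sorted cells of 1 untreated C57BL/6 mouse of 6 weeks of age. All 7 mice carried Lck-Cre, which expresses Cre from the Lck promoter in developing T cells, and no mouse without Cre was compared. The labels name no mouse, and libraries with the same number in their titles were taken as one mouse. On that reading KO45, KO49, KO51, WT05, WT46 and WT48 gave both stages and WT40 gave DN4 only.

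Libraries held 5926848 to 14148661 counts on genes. Opa1 itself, on scaled libraries, had 88.5 to 93.7 CPM (the count of a gene scaled to one library size) in the DN3 libraries labelled KO and 91.0 to 112 CPM in those labelled Wt, and 76.9 to 87.8 against 85.0 to 93.6 CPM in DN4 (log2 fold change -0.12 and -0.083, adjusted p = 1 and 0.945, edgeR). These levels over the whole gene overlapped between the genotypes. They do not show the loss of single exons, and the study took OPA1 as depleted in these mice from an immunoblot of thymocyte lysates, which is not part of these data. The Opa1fl/fl;Lck-Cre+ mice are called KO-labelled, after their label. Ribosomal RNA-like genes took 39.1% of the DN3 counts of WT05, against 0.391% to 1.59% in the others, which left 3612244 counts on other genes there. In the DN4 libraries, 9 of 9 B-cell markers rose over DN3 in both genotypes, as did 5 of 5 markers of immature single positive and DP cells. Of all genes tested, 13.4% rose in Wt and 11.2% in KO-labelled mice. Of tested markers of NK and innate lymphoid cells, 4 of 6 (Wt) and 5 of 7 (KO-labelled) rose, and only 4 of the 8 listed had more than 3 counts in a DN3 library. Their summed level was 241 to 293 CPM in DN3 and 343 to 461 CPM in DN4 in Wt mice, and 277 to 327 against 230 to 340 CPM in KO-labelled mice. Of 5 tested plasmacytoid dendritic markers, 2 rose in Wt mice, and 2 rose and 1 fell in KO-labelled mice. Other lists fell in part: of 5 tested gamma delta T markers 2 rose and 2 fell in Wt mice and 3 fell in KO-labelled mice (summed level 1558 to 2053 CPM in DN3 and 686 to 1009 CPM in DN4), and 1 of 2 tested myeloid markers fell in both genotypes. The summed level of the B-cell markers was 288 to 431 CPM in Wt DN3 and 1493 to 9342 CPM in Wt DN4, and 339.9 to 383 against 1227 to 5805 CPM in KO-labelled mice. None of the 9 was at 0 in either stage. Summed T cell identity markers were 5981 to 7081 CPM in DN3 and 5161 to 7712 CPM in DN4. Erythroid markers summed to 0 to 1.41 CPM in DN3 and 1.09 to 6.18 CPM in DN4, and stromal markers to 112 to 191 and 120 to 247 CPM.

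Myc and Max bind DNA as a heterodimer at the E-box CACGTG and drive transcription of genes for growth, among them many that make ribosomes. In the nucleolus, RNA polymerase I copies the ribosomal DNA into a long precursor, small nucleolar ribonucleoproteins (snoRNPs) guide its methylation and pseudouridylation, and assembly factors cut and fold it into the small and the large ribosomal subunit. In the thymus, Myc is known to be needed for the growth and division of pre-T cells that have received the pre-T cell receptor signal.

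The first comparison asked how the 40 genes changed from DN3 to DN4 in Wt mice. Of the 40, 24 fell, Myc, Polr1b, Rrp1b, Nop2, Mybbp1a and Rrp12 among them, and none rose. Over all 12691 genes tested, 9.43% fell and 13.4% rose. The median log2 fold change of the 40 was -0.44, against -0.028 over all genes tested, and 38 of 40 were negative. A gene was called at an adjusted p under 0.05 (Benjamini-Hochberg over all genes) in the quasi-likelihood test of edgeR, and levels are CPM on library sizes scaled by the TMM method. CPM are shares of the RNA of a library, so in these bulk samples fewer cells of a type and less RNA per cell cannot be told apart. DESeq2 called 26 of 40 lower (11.4% of all genes). The DN4 level of 29 genes lay below DN3 in every Wt library (15.0% of all genes tested did so), and 10 overlapped. Ubtf lay above, as did 2535 of the 12691 genes tested.

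In KO-labelled mice the 40 genes had a median log2 fold change of -0.46 against -0.025 over all genes, and 39 of 40 were negative. Of these, 3 passed the test, Myc, Wdr12 and Nob1, with 7.34% of all genes tested lower. At an unadjusted p under 0.05, in either direction, were 20 of the 40 and 4155 of all 12580 genes tested (edgeR). DESeq2 called 14 of 40 lower (9.39%). The KO-labelled libraries spread widely in the summed level of the 40 at both stages (SD 1796 CPM in DN3 and 1784 CPM in DN4, against 478 and 711 CPM in Wt mice). Without overlap, 17 of 40 genes were lower (16.7% of all genes tested). Comparing the DN3 and the DN4 library of the same mouse, with the mouse as a block in the fit, gave 34 of 40 lower in KO-labelled mice (16.9% of all genes) and 12 of 40 in the 3 Wt mice with both stages (6.53%). The 12 were Myc, Nop2, Nop16, Nolc1, Gnl3, Wdr12, Rrp12, Rrp1b, Utp4, Polr1a, Polr1b and Mybbp1a. Within single mice, 33 of 40 genes were lower in DN4 in all 3 Wt mice (24.1% of all genes tested) and 38 in all 3 KO-labelled mice (31.7%). The median log2 ratio of DN4 to DN3 over the 40 was -0.39 in WT05, -0.30 in WT46, -0.64 in WT48, -0.61 in KO45, -0.46 in KO49 and -0.36 in KO51. It was lower than 0 in each of the 6 mice, and the median over all genes lay between -0.00691 and 0.0207.

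**Figure D1:**
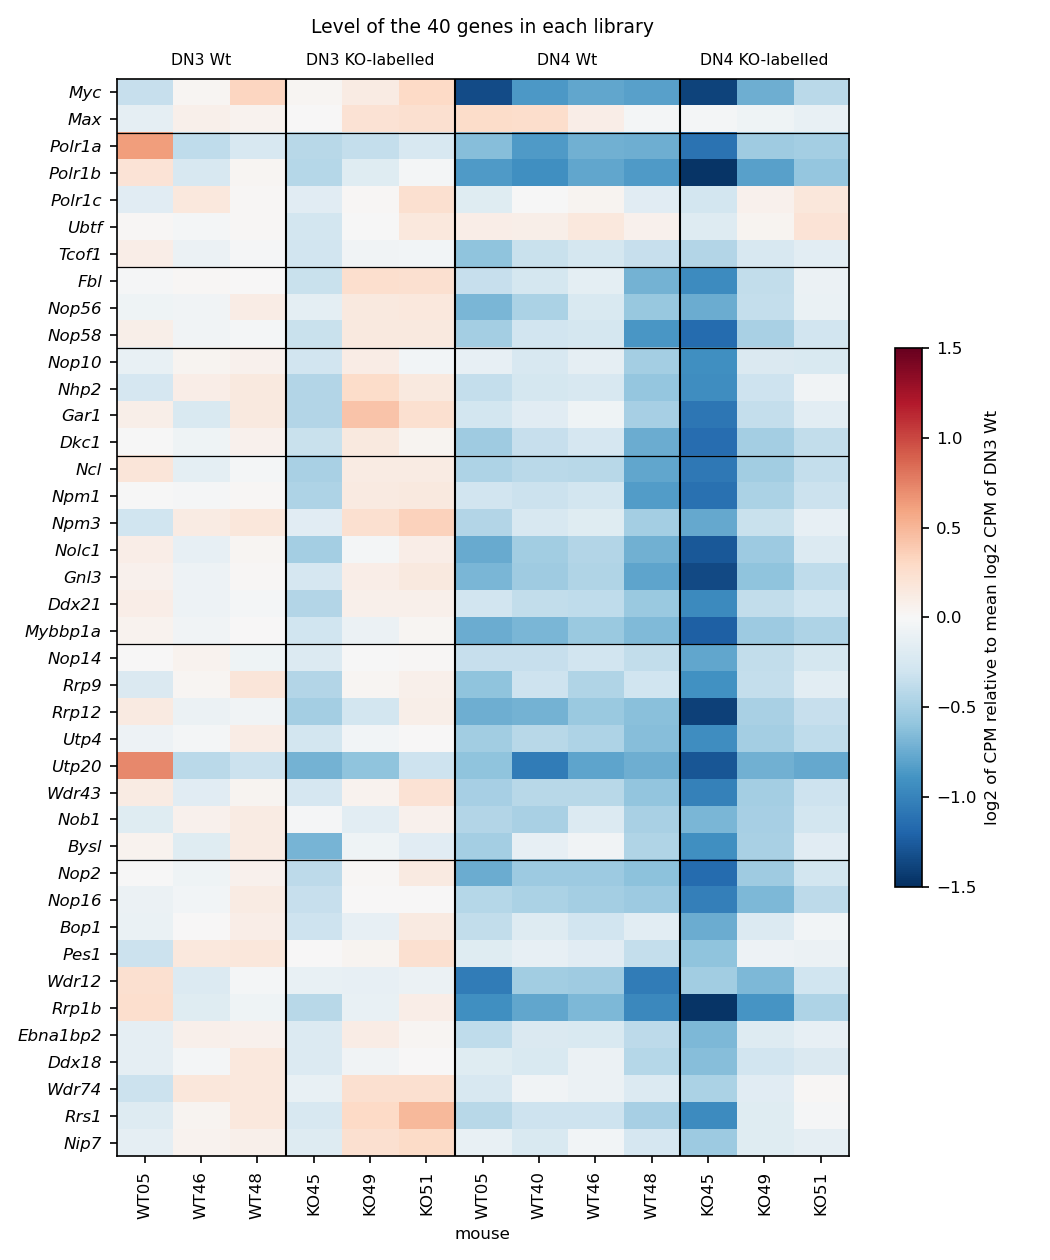
Each row is one of the 40 genes, grouped by role between the horizontal lines, and each column is a library named by its mouse. Color gives log2 of CPM minus the mean log2 CPM of the 3 DN3 Wt libraries, on a scale from -1.5 to 1.5. DN4 columns are mostly blue, the DN4 library of KO45 is the darkest, Ubtf and Polr1c stay pale, and Polr1a and Utp20 are red in the DN3 library of WT05.

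The calls in the Wt comparison rested on its libraries to different degrees. With each of the 7 libraries left out in turn, 12 to 28 of the 40 genes were lower, 12 of them every time (Myc, Nop2, Nop16, Nolc1, Gnl3, Wdr12, Rrp12, Rrp1b, Utp4, Wdr43, Polr1b and Mybbp1a). How many of all genes were lower every time was not counted. The count was 28 (of all genes tested, 11.4% fell) without the DN3 library of WT05, 14 (5.82%) without that of WT46 and 14 (5.90%) without that of WT48. It was 12 (5.76%), 12 (6.91%), 16 (7.51%) and 16 (8.62%) without the DN4 libraries of WT05, WT40, WT46 and WT48, and the share over all genes moved as well. In KO-labelled mice, leaving out 1 library gave 0 to 16 lower genes. The count was 1 without DN3 of KO45 (5.41% of all genes), 0 without DN3 of KO49 (4.33%) or KO51 (4.49%), 1 without DN4 of KO45 (5.95%), 0 without DN4 of KO49 (4.27%) and 16 without DN4 of KO51 (7.92%). On library totals without TMM scaling, which raises the DN4 libraries against the DN3 library of WT05, 0 of 40 passed in Wt mice at a median of -0.27, while the median of all genes moved to 0.16. B-cell marker RNA moved with stage too, at 288 to 431 CPM in DN3 and 1227 to 9342 CPM in DN4. As the stages did not overlap, a covariate made from it nearly repeats the stage, and such a fit cannot tell them apart. With log2 of its summed level as a covariate, 0 of 40 genes were called in either genotype. Of all genes tested, 215 still fell in Wt mice and 0 in KO-labelled mice (810 at an unadjusted p under 0.05 in either direction, edgeR). The median of the 40 in these fits was -0.22 in Wt and -0.17 in KO-labelled mice. Without the Wt DN4 libraries of WT05 and WT48, which had the most B-cell marker RNA among Wt libraries, 8 of 40 fell (5.15% of all genes) and the median was -0.34. The study's flow cytometry of DN subsets took lineage-negative cells, a gate that would remove B cells, and whether the sort for RNA used it is not given in the sources used here. The part of B-cell RNA in the stage change was not tested beyond these values.

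With all libraries, Myc had the largest fitted fall of the 40 genes in both genotypes. In Wt mice it was not the largest when any 1 of 3 libraries was left out, where Utp20 led and others among Polr1a, Polr1b, Rrp1b and Wdr12 also lay beyond Myc. Utp20 was at -1.10 and Myc at -0.98 without DN3 of WT46, -1.07 and -0.81 without DN3 of WT48, and -0.96 and -0.87 without DN4 of WT05. Myc lies at chr15:61985391-61990374 on the plus strand of GRCm38. In Wt mice Myc stood at 301, 390.3 and 477 CPM in the DN3 libraries of WT05, WT46 and WT48 and at 151, 211, 223 and 218 CPM in the DN4 libraries of WT05, WT40, WT46 and WT48. All DN4 libraries lay below all DN3 libraries, and WT05 was lowest at both stages. Myc fell by 49.4%, a log2 fold change of DN4 over DN3 of -0.98 (standard error 0.191, adjusted p = 0.00755, edgeR). In KO-labelled mice it went from 391, 415 and 469 CPM in KO45, KO49 and KO51 to 146, 230.4 and 289 CPM, again without overlap, and fell by 48.6% (log2 fold change -0.96, standard error 0.232, adjusted p = 0.0248). The log2 ratio of DN4 to DN3 within a mouse ranged from -0.70 in KO51 to -1.42 in KO45. Max did not follow Myc and stood at 103 ± 8.23 CPM in Wt DN3 (mean ± SD, n = 3) and 115 ± 11.3 CPM in Wt DN4 (n = 4), with overlapping libraries and an adjusted p of 0.469. In KO-labelled mice Max was 103, 119.8 and 121 CPM in DN3 and 100.4, 98.8 and 95.0 CPM in DN4, lower in all 3 libraries, and did not pass the test (log2 fold change -0.25, adjusted p = 0.125, 0.052 with the mouse as a block).

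**Figure D2:**
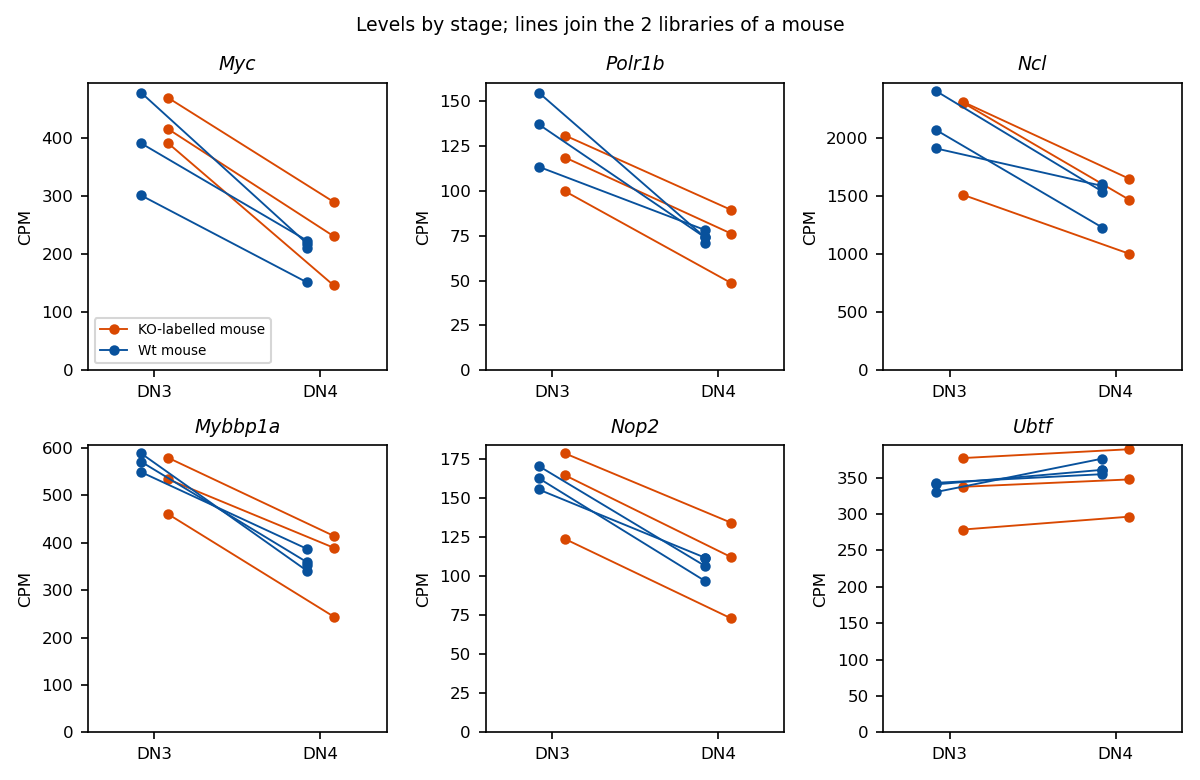
CPM of 6 genes in DN3 and DN4, a point per library, blue for Wt and orange for KO-labelled mice, with lines joining the 2 libraries of a mouse and axes from 0. Myc, Polr1b, Ncl, Mybbp1a and Nop2 slope down in every mouse, and Ubtf slopes slightly up in each of the 6.

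Of 11 other genes of the MYC/MAX network, 9 were expressed enough to be tested, and 1 of the 9 fell in Wt mice, beside 9.43% of all genes. This was Mycn, a Myc paralog, at 8.21 CPM in DN3 and 2.33 CPM in DN4 (log2 fold change -1.85, standard error 0.345, adjusted p = 0.00632). It fell in KO-labelled mice as well, by 2.09 on the log2 scale (adjusted p = 0.00271), where 1 of 9 fell (7.34% of all genes) and 2 of 9 rose (11.2%). Mxd1 and Mxd3, whose products compete with Myc for Max, rose in KO-labelled mice by log2 fold changes of 0.71 and 0.74 (adjusted p = 0.0259 and 0.0205) and did not pass in Wt mice at 0.39 and 0.45 (adjusted p = 0.109 and 0.124). Mxd1 and Mxd3 are named after their values were seen.

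Because Myc and Max bind CACGTG, the letters were searched for in windows of 300 bases around the gene starts of RefSeq on GRCm38.p6, from 250 bases before to 50 after the start. The motif is its own reverse complement, so 1 search covers both strands. Windows were matched for 33 of the 40 genes, not for Myc, Npm1, Fbl, Bop1, Rrp12, Tcof1 and Rrs1, and 7 of the 33 (21.2%) held it, against 8.09% of 27025 genes with any window. The sequences around it are printed 5′ to 3′ on the strand of the gene, with the motif in capitals, as the places where these letters lie. Nop2, Utp4 and Mybbp1a fell in Wt mice with and without the mouse as a block, Wdr43 and Utp20 only without it (adjusted p = 0.058 and 0.0542 with it), and Max and Pes1 in neither fit. A match is a run of letters and not a measured binding site.
Nop2, chr6:125131811-125131840, plus strand: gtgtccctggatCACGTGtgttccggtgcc
Utp4, chr8:106893643-106893672, plus strand: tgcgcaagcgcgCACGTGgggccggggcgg
Wdr43, chr17:71616220-71616249, plus strand: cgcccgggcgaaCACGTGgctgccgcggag
Mybbp1a, chr11:72441355-72441376, plus strand: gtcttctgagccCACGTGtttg
Utp20, chr10:88826765-88826789, minus strand: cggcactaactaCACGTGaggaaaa
Max, chr12:76962234-76962263, minus strand: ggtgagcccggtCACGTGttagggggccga
Pes1, chr11:3963965-3963994, plus strand: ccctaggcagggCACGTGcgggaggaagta

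For Nop2, in which the motif lies upstream of the start, the 250 bases before the start on the plus strand are shown as well.
Nop2 upstream, chr6:125131633-125131882: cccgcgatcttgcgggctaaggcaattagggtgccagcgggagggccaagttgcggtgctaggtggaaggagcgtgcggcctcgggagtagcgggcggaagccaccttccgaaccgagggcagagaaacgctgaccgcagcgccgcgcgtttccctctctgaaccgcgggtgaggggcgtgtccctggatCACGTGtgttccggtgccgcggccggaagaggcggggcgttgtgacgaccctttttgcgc

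Among the 5 genes of RNA polymerase I transcription, 3 fell in Wt mice (9.43% of all genes tested) and 2 did not pass. With the mouse as a block 2 of 5 fell (6.53% of all genes). Polr1b (chr2:129100995-129126594), which encodes the second largest subunit of the polymerase, went from 155, 114 and 137 CPM in DN3 (WT05, WT46, WT48) to 74.3, 70.7, 78.3 and 74.2 CPM in DN4 (WT05, WT40, WT46, WT48). It fell by 45.9% (log2 fold change -0.89, standard error 0.122, adjusted p = 0.00165), and the 4 DN4 libraries lay close together. In KO-labelled mice Polr1b was 99.8, 119 and 131 CPM in DN3 and 48.6, 76.2 and 89.4 CPM in DN4 (KO45, KO49, KO51), without overlap, at an adjusted p of 0.0545, and of 0.001 with the mouse as a block. Polr1a, the largest subunit, was 231, 115 and 126 CPM in Wt DN3 and 95.8, 83.3, 90.5 and 90.03 CPM in Wt DN4. The first value came from the library rich in ribosomal RNA-like counts and lay far above the other DN3 libraries, and all DN4 libraries lay below all DN3 libraries. With all libraries the log2 fold change was -0.83 (adjusted p = 0.0317), and without the DN3 library of WT05 it was -0.46 (adjusted p = 0.0118). The call was lost without any 1 of the DN4 libraries, at adjusted p of 0.0643 to 0.0756.

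Tcof1, whose product treacle links the polymerase to its initiation factors, fell in Wt mice from 495 ± 32.3 to 379 ± 36.5 CPM (log2 fold change -0.41, adjusted p = 0.0419) and lost the call with any 1 library left out and with the mouse as a block (adjusted p = 0.159). In KO-labelled mice it was 454 ± 41.8 and 408 ± 39.2 CPM and did not pass with or without the block (adjusted p = 0.115 and 0.355). Ubtf (chr11:102304560-102319742), the upstream binding factor that opens ribosomal DNA for the polymerase, stood apart. Its levels were 341, 330.2 and 343 CPM in Wt DN3 and 361, 359.9, 376 and 355 CPM in Wt DN4, each DN4 library above each DN3 library, with a log2 fold change of 0.077 that did not pass (standard error 0.0949, adjusted p = 0.613, edgeR). Within mice the DN4 library was the higher one in 6 of 6, by 0.043 to 0.19 on the log2 scale. How many of all genes were higher in all 6 mice was not counted. Polr1c, a subunit shared with RNA polymerase III, was 58.5 ± 6.65 CPM in Wt DN3 and 55.3 ± 4.37 CPM in Wt DN4 (log2 fold change -0.11, adjusted p = 0.563), and -0.060 in KO-labelled mice (adjusted p = 0.821).

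**Figure D3:**
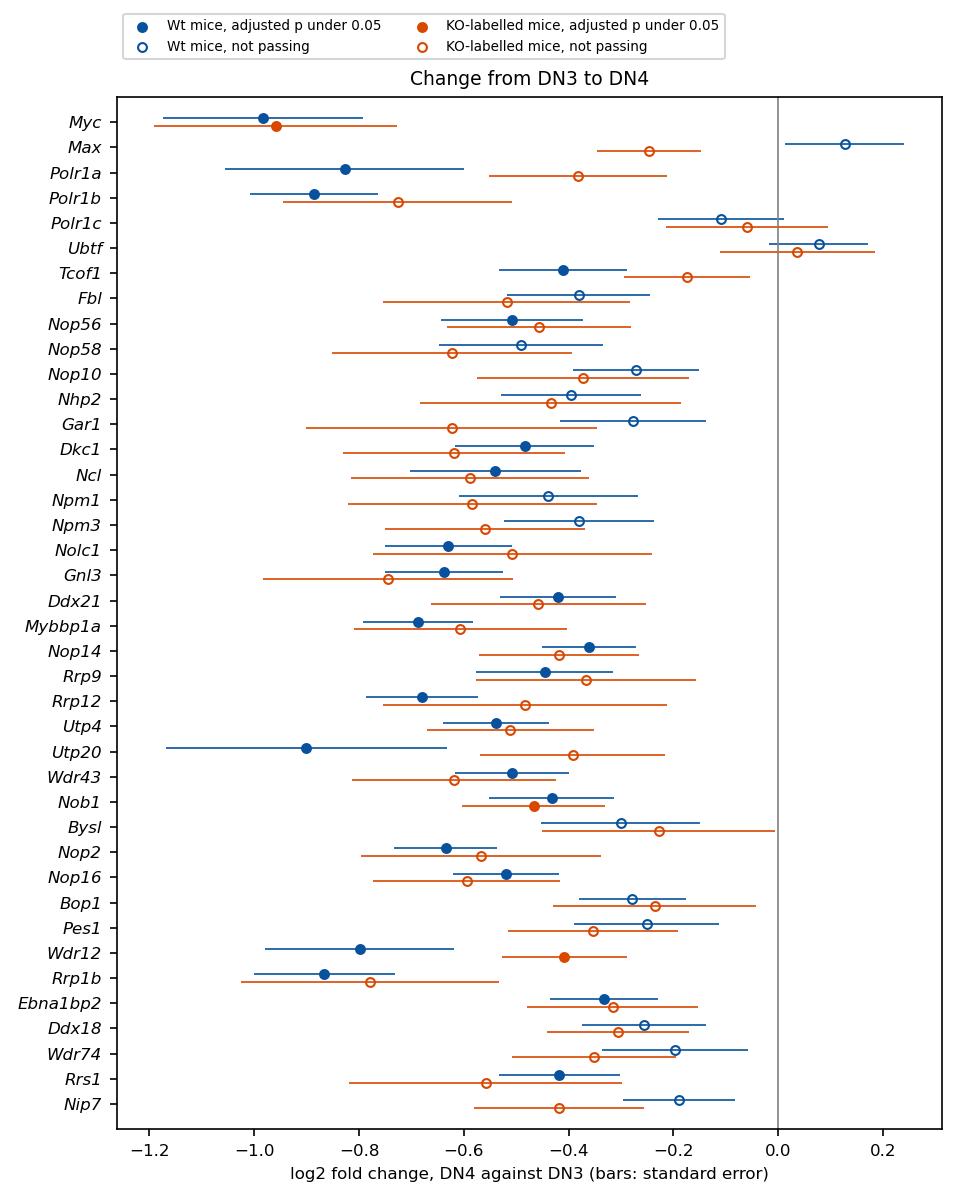
Log2 fold change from DN3 to DN4 of each gene, in Wt (blue) and KO-labelled mice (orange), with bars for the standard error and filled points for an adjusted p under 0.05 in the fit without the mouse as a block. Most points lie between -0.2 and -0.9 in both genotypes, Myc is the farthest from 0, and Ubtf and Polr1c lie nearest to it.

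The box C/D snoRNP, which methylates ribosomal RNA, was represented by its methyltransferase gene Fbl and its core protein genes Nop56 and Nop58. Nop56 fell in Wt mice, from 418, 420.3 and 473 CPM in DN3 to 270.3, 313, 373 and 295 CPM in DN4 (log2 fold change -0.51, standard error 0.135, adjusted p = 0.0273). With the mouse as a block 0 of the 3 passed in Wt mice, where 6.53% of all genes fell. At an unadjusted p under 0.05 were 3 of the 3 and 3868 of all 12531 genes (edgeR). Every DN4 library of the 3 genes lay below every DN3 library in Wt mice, as for 15.0% of all genes tested. Fbl and Nop58 missed the threshold (log2 fold change -0.38 and -0.49, adjusted p = 0.0798 and 0.0545). In KO-labelled mice the groups overlapped for all 3, with KO45 the lowest library at both stages. There 0 of the 3 passed (7.34% of all genes fell), and 1 passed by DESeq2 (9.39% fell). At an unadjusted p under 0.05 were 2 of the 3 and 4155 of all 12580 genes (edgeR). All 3 fell with the mouse as a block (16.9% of all genes), Nop58 by 0.66 on the log2 scale (adjusted p = 9.5e-04). The box H/ACA snoRNP, which makes pseudouridine, gave 1 of 4 genes lower in Wt mice (9.43% of all genes). This was Dkc1, the pseudouridine synthase dyskerin, which went from 276, 264 and 288 to 191, 217, 232 and 165 CPM (log2 fold change -0.48, adjusted p = 0.031). Its partners Nop10, Nhp2 and Gar1 had log2 fold changes of -0.27, -0.40 and -0.28 and did not pass (adjusted p = 0.145, 0.0658 and 0.196). With the mouse as a block 0 of the 4 passed in Wt mice (6.53% of all genes fell). At an unadjusted p under 0.05 in that fit were 2 of the 4 and 3868 of all 12531 genes (edgeR). In KO-labelled mice 0 of the 4 passed without the block (7.34% of all genes fell), 1 passed by DESeq2 (9.39%), and 4 of 4 fell with the block (16.9%). Without the block, 1 of the 4 and 4155 of all 12580 genes were at an unadjusted p under 0.05 (edgeR).

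Of 7 genes for nucleolar scaffold, chaperone and regulatory proteins, 5 fell in Wt mice (9.43% of all genes). With the mouse as a block 3 fell, Nolc1, Gnl3 and Mybbp1a (6.53% of all genes). Ncl (chr1:86344719-86359400), or nucleolin, one of the most abundant nucleolar proteins, was 2405, 1911 and 2069 CPM in DN3 and 1539.6, 1606, 1588 and 1229 CPM in DN4 (log2 fold change -0.54, standard error 0.163, adjusted p = 0.0454). The stages did not overlap, and the call held in 1 of the 7 fits with a library left out. In KO-labelled mice Ncl was 1512, 2306 and 2313 CPM in DN3 and 1004, 1471 and 1651 CPM in DN4 for KO45, KO49 and KO51, so that KO45 in DN3 lay below KO51 in DN4, and each mouse went down (adjusted p = 0.00125 with the block, 0.114 without). Mybbp1a (chr11:72441355-72451768), a Myb-binding nucleolar protein, fell more evenly, from 589, 549 and 571 to 341, 354, 387 and 359 CPM in Wt mice (fell by 37.9%, log2 fold change -0.69, adjusted p = 0.00262). Nolc1, a snoRNP chaperone, and Gnl3, the GTP-binding protein nucleostemin, fell with log2 fold changes of -0.63 and -0.64 (adjusted p = 0.00733 and 0.00503). Ddx21, an RNA helicase, fell by less, with a log2 fold change of -0.42 (adjusted p = 0.0267). The histone and ribosome chaperones Npm1 and Npm3 did not pass in Wt mice. Npm1, the most abundant of the 40 per length, was 1770.2, 1751 and 1794 CPM in DN3 and 1449, 1421, 1464 and 991 CPM in DN4 (log2 fold change -0.44, adjusted p = 0.102). WT48 lay far below the other DN4 libraries, and all 4 were below DN3. With the mouse as a block all 7 genes fell in KO-labelled mice (16.9% of all genes), by 0.47 (Ddx21) to 0.79 (Gnl3) on the log2 scale. Without it 0 of 7 passed (7.34% of all genes fell), and 4 passed by DESeq2 (9.39%). At an unadjusted p under 0.05 without the block were 5 of the 7 and 4155 of all 12580 genes (edgeR).

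Factors of the small subunit gave 7 of 8 genes lower in Wt mice (9.43% of all genes), and 2 of 8, Rrp12 and Utp4, with the mouse as a block (6.53%). With the block Nop14, Rrp9, Utp20, Wdr43 and Nob1 had adjusted p of 0.129, 0.0559, 0.0542, 0.058 and 0.111. Rrp12 (chr19:41862851-41896173), an export and maturation factor, went from 90.8, 77.7 and 79.2 CPM in DN3 to 49.7, 50.2, 56.2 and 53.4 CPM in DN4 (fell by 37.6%, log2 fold change -0.68, standard error 0.107, adjusted p = 0.00296). Utp4 and Wdr43 of the UTP-A complex, which binds the nascent precursor first, fell by similar amounts (log2 fold change -0.54 and -0.51, adjusted p = 0.00658 and 0.0115). Nop14, a part of the complex that forms on the nascent precursor, and Rrp9, a protein of the snoRNP that guides its early cuts, fell with log2 fold changes of -0.36 and -0.45 (adjusted p = 0.0215 and 0.041). Nob1, the endonuclease that makes the last cut of the small subunit RNA, fell in both genotypes, with -0.43 in Wt and -0.47 in KO-labelled mice (adjusted p = 0.0315 and 0.0491). Utp20, a large scaffold protein, had 231, 106 and 112 CPM in Wt DN3 and 91.7, 67.5, 81.1 and 84.1 CPM in Wt DN4. As with Polr1a, the DN3 library of WT05 was far above the rest, and without it the log2 fold change went from -0.90 to -0.46 (adjusted p = 0.0425 and 0.0332). The call was lost without any 1 of the DN4 libraries (adjusted p 0.0775 to 0.095). Bysl, or bystin, was 55.1 ± 5.83 and 45.4 ± 7.16 CPM and did not pass (adjusted p = 0.195). In KO-labelled mice 7 of the 8 fell with the mouse as a block (16.9% of all genes), all but Bysl (log2 fold change -0.24, adjusted p = 0.136), and 1 of 8, Nob1, without it (7.34%).

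Factors of the large subunit gave 6 of 11 genes lower in Wt mice (9.43% of all genes). With the mouse as a block 4 of 11 were lower, Nop2, Nop16, Wdr12 and Rrp1b (6.53% of all genes). Whether the roles differed was not tested. Rrp1b (chr17:32036100-32062865), a nucleolar partner of a protein phosphatase, went from 169, 125 and 136 to 74.9, 82.7, 89.0 and 72.6 CPM in Wt mice and fell by 45.1% (log2 fold change -0.87, standard error 0.134, adjusted p = 0.0028). Nop2 (chr6:125131909-125144753), which methylates the large subunit RNA, had 163, 156 and 171 CPM in DN3 and 97.1, 112, 112 and 107 CPM in DN4 (log2 fold change -0.63, standard error 0.0984, adjusted p = 0.00284). Its DN3 levels were about even and lay well above all DN4 levels. The nucleolar assembly factors Nop16, Rrs1 and Ebna1bp2 fell with log2 fold changes of -0.52, -0.42 and -0.33 (adjusted p = 0.00766, 0.0316 and 0.0491). Wdr12, with Bop1 and Pes1, makes up the PeBoW complex, and the 3 genes had different values. Wdr12 fell in Wt mice from 151, 111 and 126 to 62.0, 89.5, 88.2 and 61.7 CPM (log2 fold change -0.80, adjusted p = 0.0143), with WT05 and WT48 the lowest DN4 libraries, and in KO-labelled mice by 0.41 on the log2 scale (adjusted p = 0.0485). Bop1 and Pes1 had -0.28 and -0.25 in Wt mice and did not pass (adjusted p = 0.0872 and 0.234). The difference between the 3 partners was not tested. The helicase gene Ddx18 and the assembly factors Wdr74 and Nip7 did not pass either, with log2 fold changes of -0.26, -0.20 and -0.19 (adjusted p = 0.161, 0.352 and 0.245). In KO-labelled mice 10 of 11 fell with the mouse as a block (16.9% of all genes), all but Bop1 (log2 fold change -0.26, adjusted p = 0.0694), and 1 of 11, Wdr12, without it (7.34%).

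Levels of different genes were set side by side only per length, as CPM per kilobase of the union of a gene's exons in Wt DN3 libraries (mean ± SD, n = 3). Npm1 was highest at 665 ± 8.15, followed by Ncl at 209 ± 24.8, Myc at 143 ± 32.5 and Npm3 at 115 ± 19.5. Npm1 and Ncl stood apart from the next gene by more than their spread, and Myc and Npm3 did not. Wdr12 was lowest at 10.8 ± 1.69, followed by Polr1a at 13.3 ± 5.40, Bysl at 14.3 ± 1.51 and Utp20 at 14.7 ± 6.94, each within the spread of the next. The median over the 40 was 44.8, and 56.1 with the length of the longest transcript. Some of these levels are less certain, since stretches of 50 bases of the exons also occur in other genes. The share of such stretches was 55.9% in Ddx18, 24.3% in Npm1, 22.6% in Npm3, 20.4% in Pes1, 19.0% in Fbl and 18.6% in Nop56, and 6.30% or less in each of the others. Exons of a gene on the opposite strand overlap those of Nop56 (Idh3b), Wdr12 (Carf), Bysl (Ccnd3), Gnl3 (Pbrm1) and Mybbp1a (Spns2), among others, and whether reads were counted by strand is not given in the sources used here. The gene with the most counts in a library was Ncl at 23611, and the one with the fewest was Polr1c at 177 in the DN3 library of WT05.

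Other genes of the pathway, taken from lists that do not overlap the 40, gave the following counts. Of 42 other genes of the small subunit processome, 11 fell in Wt mice and 0 rose, with a median log2 fold change of -0.26. Led among genes without overlap by log2 fold change, they held Nat10 (-0.76, adjusted p = 0.00609), an RNA acetyltransferase, Pdcd11 (-0.60, adjusted p = 0.0352), Dhx37 (-0.55, adjusted p = 0.0229) and Nol6 (-0.49, adjusted p = 0.0145). Of 46 other large subunit factors, 16 fell and 0 rose (median -0.33), led among genes without overlap by Tma16 (-0.79, adjusted p = 0.0029), Urb2 (-0.72, adjusted p = 0.011), Ppan (-0.71, adjusted p = 0.00384) and Noc2l (-0.65, adjusted p = 0.00682). RNA polymerase I gave 3 of 19 other genes lower (median -0.17), namely the selectivity factor subunits Taf1a (-0.64, adjusted p = 0.0128), Taf1c (-0.50, adjusted p = 0.0309) and Taf1d (-0.47, adjusted p = 0.0315). RNA polymerase III, which makes the smallest ribosomal RNA and transfer RNA, gave 2 of 22 lower (median -0.24), Gtf3c5 (-0.38, adjusted p = 0.0325) and Polr3e (-0.35, adjusted p = 0.0315). These shares stand beside 9.43% of all genes. With the mouse as a block, the counts lower in Wt mice were 2 of 42, 6 of 46, 1 of 19 and 0 of 22 (6.53% of all genes). At an unadjusted p under 0.05 in that fit were 6 of the 22 and 3868 of all 12531 genes (edgeR). In KO-labelled mice they were 1, 4, 1 and 5 without the block, beside 7.34% of all genes, and 23, 24, 7 and 7 with it, beside 16.9%. The block also called 1 other gene of RNA polymerase I and 3 genes of RNA polymerase III higher in KO-labelled mice, 0 of the small subunit list and 0 of the large subunit list (18.9% of all genes rose).

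Genes commonly listed as Myc targets outside ribosome biogenesis gave 14 of 36 lower and 0 higher in Wt mice, with a median of -0.41 (9.43% of all genes fell). Hk2, a hexokinase of glycolysis, was 37.8 ± 11.4 CPM in DN3 and 16.4 ± 1.74 CPM in DN4 (log2 fold change -1.21, adjusted p = 0.00414). Cad, of pyrimidine synthesis, Slc7a5, a carrier of large neutral amino acids, and Srm, of spermidine synthesis, fell with log2 fold changes of -0.88, -0.70 and -0.64 (adjusted p = 0.0131, 0.00705 and 0.025). With the mouse as a block 5 of 36 were lower in Wt mice (6.53% of all genes), and in KO-labelled mice 4 without (7.34%) and 31 with it (16.9%). Of the proliferation markers 0 of 20 passed in Wt mice by edgeR, DESeq2 or an unadjusted p under 0.05, with a median of -0.025. Of all 12691 genes, 4509 were at an unadjusted p under 0.05 there (edgeR). In KO-labelled mice 0 of 20 passed (2 at an unadjusted p under 0.05, 1 higher by DESeq2; median 0.19), and with the mouse as a block 7 rose and 1 fell, where 18.9% of all genes rose and 16.9% fell.

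Summed over the 40 genes, the level was 11490.1, 10578 and 11283 CPM in the Wt DN3 libraries of WT05, WT46 and WT48 and 8027, 8465, 8756 and 7126 CPM in the Wt DN4 libraries of WT05, WT40, WT46 and WT48. All 4 DN4 sums were below all 3 DN3 sums. In KO-labelled mice the sums were 8709, 11616 and 11989 CPM in DN3 and 5689, 8159.7 and 9155 CPM in DN4 for KO45, KO49 and KO51. KO45 was the lowest KO-labelled library at both stages, for 38 of 40 genes in DN3 and 38 of 40 in DN4, and its DN3 sum lay below the DN4 sums of KO51 and WT46. The DN4 library of KO45 also had the highest summed level of immature single positive and DP markers, 3082 CPM against 457 to 1919.7 CPM in the other DN4 libraries, and of DN3 markers, 1960.0 CPM against 464 to 1089 CPM. Within each of the 4 groups, the order of the libraries by this sum was their order by the summed level of 20 proliferation markers. In Wt DN4, for example, these were 4714 CPM in WT48, 5973 in WT05, 6945 in WT40 and 7611 in WT46. With 3 or 4 libraries a group, this is a description. Without both libraries of KO45, 16 of 40 genes fell in KO-labelled mice (5.98% of all genes) and the median was -0.40.

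**Figure D4:**
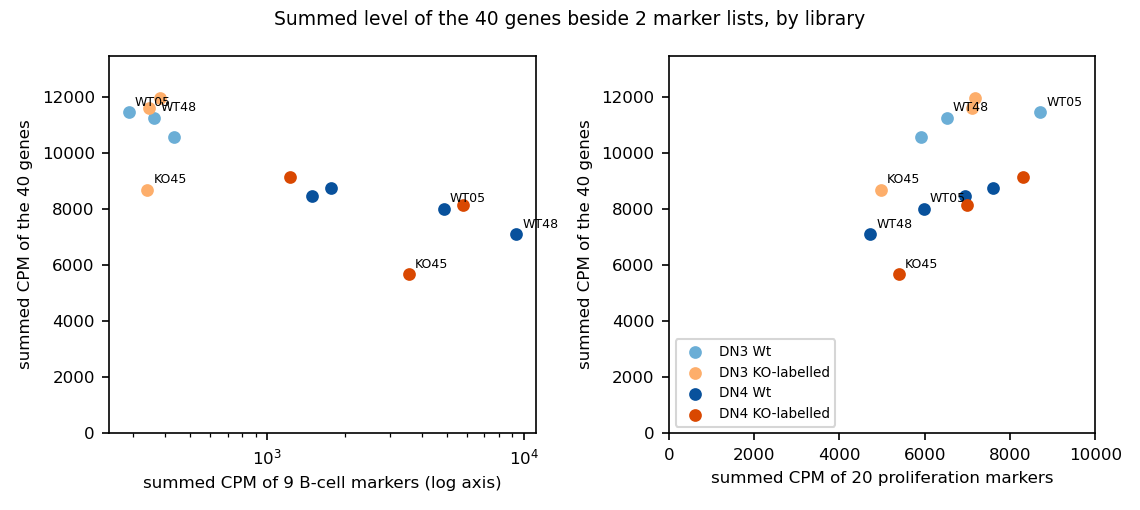
Summed CPM of the 40 genes in each of the 13 libraries (vertical axes, from 0) beside the summed CPM of 9 B-cell markers (left, log axis) and of 20 proliferation markers (right), colored by group. DN4 libraries lie right of and below the DN3 libraries in the left panel, except that KO45 in DN3 is below KO51 and WT46 in DN4. In the right panel proliferation markers run from 4965 to 8701 CPM in DN3 and from 4714 to 8305 CPM in DN4.

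The second question was whether the 40 genes differed between KO-labelled and Wt mice. In DN4, 0 of 40 passed (edgeR, 0.0535% of 13084 genes did), with 0 at an unadjusted p under 0.05 (715 of all genes, edgeR) and 0 by DESeq2 and limma-voom. The median log2 fold change of KO-labelled against Wt was -0.034 and the range -0.21 to 0.31. Without the DN4 library of KO45 the median was 0.14. Myc was 146, 230.4 and 289 CPM in KO45, KO49 and KO51 and 151, 211, 223 and 218 CPM in the Wt libraries, fully overlapping (log2 fold change 0.18, standard error 0.230, adjusted p = 0.960). Max was the 1 gene without overlap, lower in KO-labelled mice (4.33% of all genes tested lay lower without overlap and 2.73% higher). It had 100.4, 98.8 and 95.0 CPM against 124, 124, 110.4 and 100.9 CPM in WT05, WT40, WT46 and WT48, and the gap between the nearest libraries, KO45 and WT48, was small (log2 fold change -0.19, standard error 0.103, unadjusted p = 0.0961, adjusted p = 0.883). Wdr12 and Tcof1, next in order of p, had 0.31 and 0.14 (adjusted p = 0.899 and 0.926).

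In DN3, 0 of 40 genes passed by edgeR (0% of 12105 genes) and 0 of 40 by DESeq2 (0.0248% of all). At an unadjusted p under 0.05 there were 0 by edgeR (168 of all genes) and 1 by DESeq2 (226 of all genes). The median was -0.058, and 0.065 without the DN3 library of KO45. All 40 genes had overlapping libraries, while 3.33% of all genes tested lay lower and 3.10% higher in KO-labelled mice without overlap. Myc was 391, 415 and 469 CPM in KO-labelled and 301, 390.3 and 477 CPM in Wt libraries (log2 fold change 0.12, standard error 0.186, adjusted p = 1). Utp20, Bysl and Polr1a had the smallest unadjusted p, at 0.0653, 0.144 and 0.148, with log2 fold changes of -0.63, -0.30 and -0.41. For Utp20 and Polr1a the Wt group holds the high DN3 library of WT05.

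**Figure D5:**
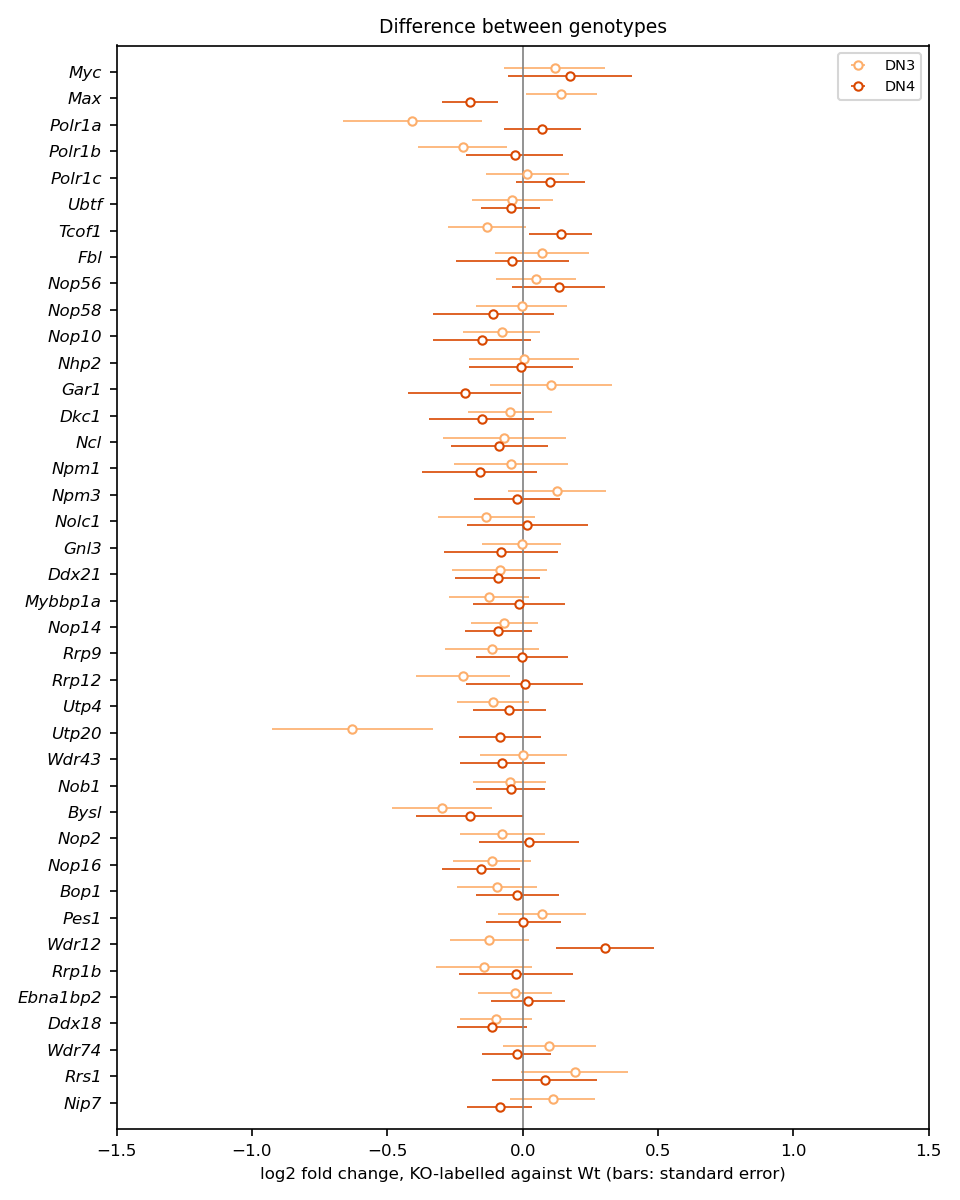
Log2 fold change of KO-labelled against Wt for each gene in DN3 (light) and DN4 (dark), with bars for the standard error. Points lie on both sides of 0, and Utp20 and Polr1a in DN3 are farthest from it and have the widest bars.

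The stage change was compared between the genotypes by an interaction term of the 2 factors in a fit of all 13 libraries. By edgeR 0 of 40 genes passed (0% of 13361 genes), and 0 by DESeq2 (0.0150% of all genes), limma-voom or with the mouse as a block. At an unadjusted p under 0.05 were 1 of the 40 and 480 of all genes (edgeR). The 1 gene was Max, with a log2 difference of -0.38 (standard error 0.154, unadjusted p = 0.0294, adjusted p = 1). For Myc the falls in the 2 genotypes differed by 0.021 on the log2 scale (standard error 0.320, unadjusted p = 0.948). Wdr12 and Polr1a, next in order of p, had 0.39 and 0.44 (standard error 0.232 and 0.311, unadjusted p = 0.118 and 0.182). A p that misses the threshold does not show that the genotypes were alike, and at these standard errors a difference such as that of Wdr12 did not pass. What size of difference could be detected was not computed.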

How the data were processed

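RNA of freshly sorted DN3 and DN4 thymocytes was made into stranded mRNA libraries (TruSeq) and sequenced on a HiSeq instrument. The counts deposited by the authors are raw whole numbers per gene, obtained from featureCounts on STAR alignments of reads that Cutadapt had trimmed. The build is mm10 per the submitters' processing notes, and the annotation and strand setting of the counting are not given in the sources used here. Gene names, exon lengths and positions came from GENCODE M21 on GRCm38, which held 47310 of the 47937 identifiers, and promoter windows from RefSeq on GRCm38.p6.

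Genes were kept by filterByExpr with a minimum count of 10, library sizes were scaled by TMM, and each of the 5 comparisons was fitted over all kept genes in edgeR 4.0.16 (R 4.3.3) by its quasi-likelihood F test, with Benjamini-Hochberg adjustment and a threshold of 0.05. A standard error is the log2 fold change divided by the root of the F statistic. Alternatives were DESeq2 1.42.0, limma-voom (limma 3.58.1), other scalings and filters, a single fit of all 13 libraries, and each library left out. Scripts were tested on simulated counts. The 2 libraries with the same number in their titles were taken as one mouse: the correlation of their deviations from the group means over 13361 genes was 0.124 (WT46) to 0.460 (KO45) in the 6 mice with both stages. It was not computed for libraries with different numbers, so there is no value to set it against. No 2 libraries of a group agreed within sampling noise. Depth per library was 5926848 to 14148661 counts, and the lowest count of any of the 40 genes was 177. P-values without the mouse as a block measure the spread between the libraries of a group, each from a different mouse. In the stage and interaction fits they leave out that DN3 and DN4 libraries share mice. Those with the block measure the spread between mice of the change from DN3 to DN4.

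The 40 genes and all other lists were chosen with earlier results of these data known. Between stages any of the 40 may be named, between genotypes Myc and the 3 smallest p-values, and from each other list up to 4 called, non-overlapping genes with the largest change in Wt mice.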

Additional observations from a re-analysis of the deposited data

Results flagged for a closer look

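A pair of levels in the DN4 libraries of Wt mice stood apart from the rest of their group. Myc was lowest in the library of WT05 at 151 CPM, against 211 to 223 CPM in the other 3. Npm1 was lowest in the library of WT48 at 991 CPM, against 1421 to 1464 CPM in the other 3. In each case the gap to the nearest library, as a share of the range of the group, was above Dixon's critical value for 4 samples. The check was made on 43 levels in the same 4 libraries, and chance alone gives about 1 such value in 20, so about 2 of 43. The DN4 libraries of WT48 and WT05 had the highest summed B-cell marker levels of the Wt group, 9342 and 4868 CPM, and their part in these values was not tested. Without the DN4 library of WT05 the log2 fold change of Myc was -0.87 (adjusted p = 0.019, edgeR), and without that of WT48 the log2 fold change of Npm1 was -0.32 (adjusted p = 0.131).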

How the results depend on the processing

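Of the 40 genes, 24 fell in Wt mice (9.43% of all genes) and 3 in KO-labelled mice (7.34%) in the fits as reported. These counts were 10 (4.25% of all genes lower) and 0 (2.84%) at an adjusted p under 0.01, 0 (3.12%) and 5 (7.58%) on library totals, and 15 (4.64%) and 13 (4.77%) with no filter beyond 1 count. In KO-labelled mice DESeq2 gave 14 (9.39%) and a single fit of all 13 libraries gave 11 (7.51%). Leaving out 1 library gave 12 to 28 in Wt (5.76% to 11.4% of all genes lower) and 0 to 16 in KO-labelled mice (4.27% to 7.92%). With the mouse as a replicate block the counts were 12 (Wt, 6.53%) and 34 (KO-labelled, 16.9%), and for the interaction 0 as without it. Alternatives chosen after seeing the data gave 7 in Wt mice with the block and without WT05 (6.08% of all genes lower), 8 in Wt mice without the DN4 libraries of WT05 and WT48 (5.15%), 16 in KO-labelled mice without KO45 (5.98%), and 0 and 0 with the B-cell marker level as a covariate. The median of the 40 was -0.27 in Wt mice on library totals, where the median of all genes moved to 0.16, and -0.22 (Wt) and -0.17 (KO-labelled) with the B-cell covariate. That covariate nearly repeats the stage, so its calls and directions do not tell stage from B-cell RNA. With it the direction turned for Npm1, Fbl, Nop58, Gar1, Dkc1, Polr1c and Bysl at 0.065, 0.13, 0.19, 0.19, 0.032, 0.075 and 0.23 in Wt mice, and for Nhp2, Nolc1, Bop1, Wdr12, Rrp9, Polr1c and Bysl at 0.050, 0.10, 0.093, 0.078, 0.023, 0.14 and 0.30 in KO-labelled mice. Polr1c turned to 0.050 in Wt mice on library totals and Max to -0.062 with the block and without WT05. In KO-labelled mice, with 1 library left out, Polr1c ranged from -0.17 to 0.028, turning to 0.025 without DN3 of KO51 and 0.028 without DN4 of KO45. Ubtf ranged from -0.079 to 0.11, turning to -0.062 without DN3 of KO45 and -0.079 without DN4 of KO51. Between genotypes 0 of 40 passed under every alternative run. The median of the 40 ranged from -0.16 to 0.14 in DN4, -0.12 to 0.065 in DN3 and -0.17 to 0.13 for the interaction with 1 library left out, and on library totals it was 0.18 in DN3 (all genes 0.23) and -0.21 for the interaction (all genes -0.20). The genotype difference of Myc ranged from -0.052 (without KO51) to 0.40 in DN4, and from -0.031 (without WT05) to 0.29 in DN3. Its interaction ranged from -0.22 (without DN4 of KO51) to 0.25 and was negative also without DN3 of KO45 or WT48 and without DN4 of KO49 or WT05. It was -0.12 on library totals, -0.041 by limma-voom, -0.0097 with the block and -0.0081 with it and without WT05. The median level per length was 56.1 CPM per kilobase with the longest transcript. The cause of these changes was not tested. The single fit of all 13 libraries is the interaction's own design, so it is no alternative there. Depth limited no member to fewer than 177 counts.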
